A study of Mus musculus with 8 samples.

Results

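Glucocorticoid response genes were followed in Paneth cells (PCs), the granule-filled secretory cells at the base of the small intestinal crypts. The set held 10 genes of the 55414 in the count table: Nr3c1, which encodes the glucocorticoid receptor, and 9 genes known as its targets (Tsc22d3, Fkbp5, Sgk1, Zbtb16, Dusp1, Klf9, Pdk4, Errfi1 and Cdkn1a). They are listed by name, with no threshold on their values, and all 10 passed the filter on low counts that kept 10707 genes. The libraries were 8, each of PCs sorted by fluorescence from 1 C57BL/6J mouse. Of the mice, 4 drank Milli-Q water, which is purified laboratory water, and 4 drank zinc water with 25 mM ZnSO4 (zinc sulfate), each for 7 days. All 8 then received tumor necrosis factor (TNF), a cytokine of inflammation, 3 hours before the cells were taken. Both groups thus carry the TNF treatment, and a level without TNF was not analysed here. The age and sex of the mice are not given in the sources used here. Zinc was not measured in these files, and neither was corticosterone, the main glucocorticoid of the mouse.

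Glucocorticoids enter the cell and bind the receptor, which is held by the chaperone HSP90 and its partners in the cytosol. The bound receptor moves to the nucleus, where it docks as a dimer on a short palindromic DNA element, the glucocorticoid response element, and raises or lowers transcription of the genes nearby. TNF is known to activate the adrenal axis and so to raise circulating glucocorticoid, and glucocorticoids in turn dampen inflammatory transcription. Mt1 and Mt2 encode metallothioneins, small metal-binding proteins that are known to be induced both by zinc, through the metal-responsive factor MTF-1, and by glucocorticoids. The design therefore allows each of the 10 genes to be compared between water and zinc, and its level to be followed from mouse to mouse beside that of Mt1 and Mt2.

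Matches to the palindromic element were searched to show which of the genes carry it near the start. The element was spelled GNACANNNTGTNC, and its full form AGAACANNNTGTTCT contains it. Since a palindrome reads the same on both strands, a match was counted once. In the GRCm39 genome, the window of 5000 bases on either side of the start of the canonical transcript held the shorter spelling in 4 of the 9 targets. The same window held it in 15.8% of 10365 tested protein-coding genes, and the full form in 0.125%. Matches at Nr3c1 are not reported here. Each match is printed on the strand of its gene with 25 bases on either side, and capitals mark the letters of the element.

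Sgk1, chr10:21869576-21869638, plus strand, 964 bases before the start: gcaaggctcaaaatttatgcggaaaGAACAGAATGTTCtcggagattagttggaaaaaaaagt
Dusp1, chr17:26728436-26728498, minus strand, 980 bases before the start: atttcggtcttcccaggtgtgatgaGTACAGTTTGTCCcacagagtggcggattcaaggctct
Fkbp5, chr17:28703902-28703964, minus strand, 1213 bases after the start: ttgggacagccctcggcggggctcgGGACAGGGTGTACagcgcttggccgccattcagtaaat
Cdkn1a, chr17:29313649-29313711, plus strand, 936 bases after the start: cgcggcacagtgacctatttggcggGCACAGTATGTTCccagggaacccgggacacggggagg
Mt1, chr8:94905598-94905660, plus strand, 87 bases before the start: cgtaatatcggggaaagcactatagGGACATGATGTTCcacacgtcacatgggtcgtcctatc
Mt2, chr8:94898139-94898201, plus strand, 968 bases before the start: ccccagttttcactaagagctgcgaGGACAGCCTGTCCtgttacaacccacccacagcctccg

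Of these, the Sgk1 match was the only one of the full form. The Fkbp5 and Cdkn1a matches lay in introns of their own genes, and the Sgk1 and Dusp1 matches lay before the canonical start but inside the annotated gene, in no exon of it. The Dusp1 match also lay in an exon of Gm56886, a long non-coding RNA gene on the opposite strand. The Mt1 match lay in the promoter window (250 bases before to 50 after the start), which held the element in 0.212% of the 10365 genes, and it overlapped an exon of Gm63980 on the opposite strand. A second match, 4390 bases before the Mt1 start, was also the second match of Mt2, 2188 bases after its start. The core of the metal response element, TGCACNC or TGCGCNC on either strand, occurred 3 times in the promoter window of Mt1 and 2 times in that of Mt2. Of the 9 genes, 4 held it there (Tsc22d3, Sgk1, Zbtb16 and Dusp1), beside 34.4% of all 10365. A match describes these letters and is no measure of binding.

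**Figure D1:**
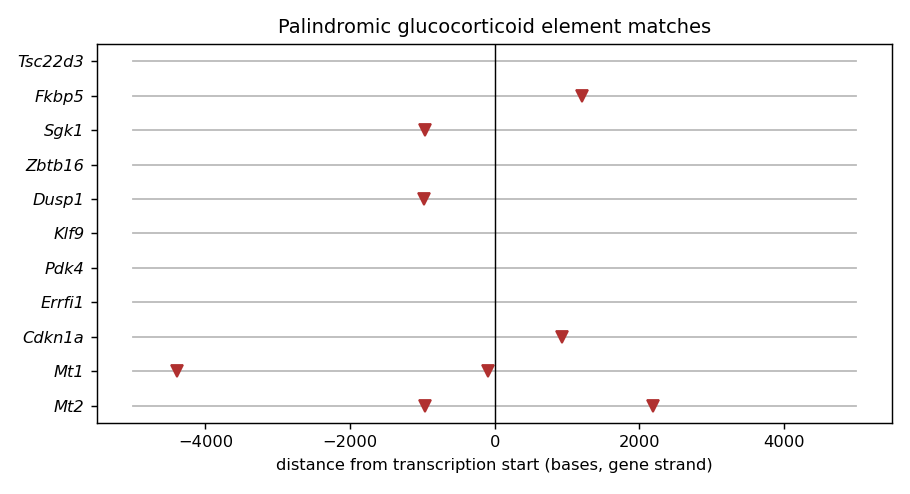
Positions of the palindromic element around the transcription start of 9 glucocorticoid response genes, Mt1 and Mt2, with the distance from the start in bases on the gene's strand on the horizontal axis and 1 gene per row. Triangles mark matches: Fkbp5, Sgk1, Dusp1 and Cdkn1a have 1 each, Mt1 and Mt2 have 2 each, and the other genes have none within 5000 bases.

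The libraries held 10623658 to 15101627 counts, and the 10 genes together took 0.014% to 0.0252% of them. On the scaled library sizes, a count of 3, the limit that a count of 0 allows, was worth 0.179 to 0.369 CPM (counts brought to the same library size), counting error only. The defining markers of PCs dominated every library, with a summed level of 410600 to 736300 CPM over 10 markers with water and 393300 to 496000 with zinc, and Defa24 the highest. Of 10 immune cell markers, 0 passed the filter, their sum was at most 0.752 CPM, and Adgre1, Cd8a and S100a8 were at 0. Of 8 stromal and endothelial markers, also 0 passed, with a sum of at most 0.596 CPM and Cdh5, Col1a1, Col1a2, Col3a1 and Dcn at 0. Of the 8 libraries, 3 stood apart. Zinc replicate 3 was the lowest of the 8 in 30.0% and the highest in 29.8% of all genes tested, and its summed level over 15 TNF and NF-kB targets was 150.5 CPM, against 1600 to 1967 in the other 7. In Milli-Q water replicates 3 and 4 the level of a gene, relative to its median over the libraries, was lower the longer its transcript (Spearman's rho -0.355 and -0.379 across 10694 genes, against -0.013 to 0.273 in the other 6). Milli-Q water replicate 3 was the lowest library in 16.5% of genes.

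Per length of transcript, Cdkn1a was the highest of the 10 genes and Zbtb16 the lowest. Levels per length are given as TPM (counts per kilobase of the canonical transcript's exons, scaled to the same sum in each library), as the lowest, median and highest of the 8 libraries. Cdkn1a, which encodes the cell cycle inhibitor p21, stood at 15.6, 19.8 and 30.5 TPM and above the next gene in 8 of 8 libraries. It was above 91% of all genes tested. Dusp1 (1.43, 7.91 and 18.6 TPM), Klf9 (2.93, 7.22 and 9.02) and Fkbp5 (2.05, 4.56 and 8.10) followed, then Sgk1 (1.52, 4.40 and 7.27). Fkbp5 was above Sgk1 in 5 of the 8 libraries and Dusp1 above Klf9 in 6, so these neighbours were not separated beyond the spread between mice. Tsc22d3 (1.46, 2.51 and 6.37 TPM) and Errfi1 (1.14, 2.33 and 2.90) were interleaved as well, with Tsc22d3 higher in 4 of 8. The receptor gene Nr3c1 (0.617, 1.30 and 2.75 TPM) was above 31.1% of all genes tested, and above Pdk4 (0.427, 0.706 and 2.31) in 7 libraries. Zbtb16 was at 0.0679 to 0.241 TPM, above 1.06% of the genes tested, on 139 counts in all.

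**Figure D2:**
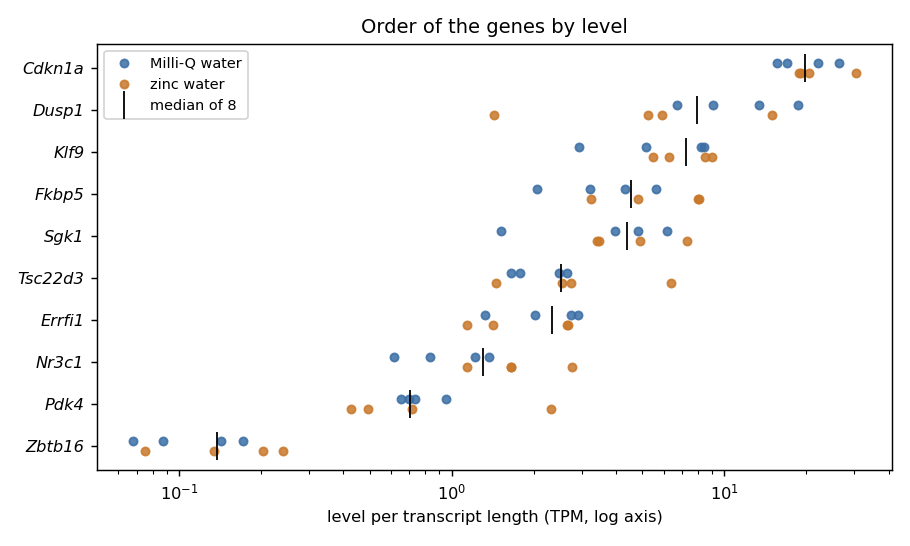
Level of each glucocorticoid response gene per transcript length (TPM, log axis) in 4 Milli-Q water and 4 zinc water libraries, with the median of the 8 as a black line. Cdkn1a lies at 15.6 to 30.5 TPM in every library and Zbtb16 below 0.25 TPM, while Dusp1, Klf9, Fkbp5 and Sgk1 overlap.

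Zinc was then compared with water. By the edgeR quasi-likelihood test with Benjamini-Hochberg adjustment, 0 of the 10 genes passed an adjusted p of 0.05, beside 0% (0 of 10707) of all genes. Their adjusted p ran from 0.485 to 0.966. At an unadjusted p under 0.05 stood 1 of the 10, Nr3c1, where 10.2% of all genes did (1092). In 0 of the 10 did the 4 zinc libraries lie wholly above or below the 4 water libraries, against 5.87% of all genes. The log2 fold change, zinc over water, was positive in 7 and negative in 3, with a median of 0.16, and the median over all genes was 0.0062. Without zinc replicate 3, 5 of 10 were positive with a median of 0.027. In bulk samples, fewer cells of a type and less RNA per cell cannot be told apart.

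Nr3c1 had the smallest p of the 10. Its level in Milli-Q water replicates 1 to 4 was 8.82, 9.47, 7.51 and 8.16 CPM, and in zinc replicates 1 to 4 it was 13.5, 11.1, 21.5 and 9.27 CPM. All zinc mice but the fourth were above every water mouse, and zinc replicate 4 lay inside the water range, so the groups overlapped by 1 library. The means were 8.49 ± 0.846 and 13.8 ± 5.37 CPM (SD, n = 4 each). The log2 fold change was 0.70 with an SE of 0.247 (edgeR adjusted p = 0.485). The highest value was that of zinc replicate 3, and without that library the log2 fold change was 0.41 with an SE of 0.176 (edgeR adjusted p = 0.599). It was 0.58 without Milli-Q water replicates 3 and 4, and 0.62 with a correction for exon length.

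The chaperone side of the receptor was read through Fkbp5, an HSP90 co-chaperone that lowers the receptor's affinity for hormone and is itself induced by it. Fkbp5 was at 17.2, 21.3, 13.8 and 17.4 CPM with water and at 36.0, 30.1, 20.7 and 14.5 CPM with zinc. Zinc replicates 1 and 2 were above every water library, and zinc replicates 3 and 4 lay within the water range. The group means, 17.4 ± 3.06 and 25.3 ± 9.57 CPM (SD, n = 4 each), differed by 0.53 on the log2 scale (SE 0.261, edgeR adjusted p = 0.491). Without zinc replicate 3 it was 0.62, and without zinc replicate 1 it was 0.32.

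Over the rest of the receptor machinery (17 genes for the mineralocorticoid receptor, chaperones and coregulators), 0 passed the test in either direction by edgeR. Of the 17, 11 were higher and 6 lower with zinc, with a median log2 fold change of 0.16. Without zinc replicate 3, 13 were higher and the median was 0.063. At an unadjusted p under 0.05 stood 1 of the 17, beside 10.2% of all genes. That gene was Crebbp, a histone acetyltransferase coactivator, which ran from 17.2 to 23.5 CPM with water and from 23.9 to 29.1 with zinc without overlap (log2 fold change 0.34, SE 0.144, edgeR adjusted p = 0.485). It was 0.15 with the correction for exon length and 0.18 without Milli-Q water replicates 3 and 4, and its levels per length overlapped between the groups. Groups without overlap in CPM were found for 1 of the 17, beside 5.87% of all genes. Fkbp4, the co-chaperone that exchanges with the product of Fkbp5 on the receptor complex, had a log2 fold change of 0.51, or 0.29 without zinc replicate 3. The chaperones Ptges3 (-0.29) and Hspa8 (-0.38) had negative values, -0.185 and -0.21 without zinc replicate 3.

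Tsc22d3 encodes GILZ, a leucine zipper protein that restrains inflammatory signaling. With water it was nearly constant, at 6.91, 7.03, 7.75 and 6.72 CPM, and with zinc it was spread, at 4.59, 6.60, 19.2 and 8.55 CPM. The zinc group held both the lowest and the highest mouse. Its log2 fold change, 0.46 (SE 0.373) with an edgeR adjusted p of 0.611, became -0.10 without zinc replicate 3. That library was 2.77 times the median of the other 7 for Tsc22d3, 2.32 times for Nr3c1 and 3.74 times for Pdk4.

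Pdk4 encodes a kinase that holds back pyruvate oxidation, and is induced by fasting as well as by glucocorticoids. Its levels were 2.74, 3.81, 4.92 and 4.16 CPM with water and 2.34, 2.80, 10.5 and 2.02 CPM with zinc. Of the other 3 zinc mice, 2 were below every water mouse and 1, at 2.80 CPM, was just above the lowest. The log2 fold change was 0.19 (SE 0.502, edgeR adjusted p = 0.885) with all libraries and -0.69 without zinc replicate 3 (SE 0.292, edgeR adjusted p = 0.595), the largest shift among the 10 genes on leaving out that library.

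Dusp1, which encodes a phosphatase that inactivates MAP kinases, is induced by glucocorticoids and also, as an immediate early gene, by stress and cytokines. It was at 41.3, 28.4, 25.1 and 27.3 CPM with water and at 14.8, 10.9, 3.44 and 37.4 CPM with zinc. Of the 4 zinc mice, 3 were below every water mouse, while zinc replicate 4 lay near the top of the water range. The log2 fold change was -0.88 (SE 0.527, edgeR adjusted p = 0.524), -0.54 without zinc replicate 3 and -1.67 without zinc replicate 4 (SE 0.406, edgeR adjusted p = 0.146). Ergic1, on the opposite strand, overlaps the annotated Dusp1 gene and had 22695 counts in all, and the sources used here do not say whether reads were counted by strand.

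Errfi1, whose product inhibits the EGF receptor, had 15.7, 15.8, 12.7 and 15.6 CPM with water and 7.31, 14.1, 8.70 and 17.1 CPM with zinc. Zinc replicates 1 and 3 were below every water library and zinc replicate 4 above every one. The difference was -0.34 on the log2 scale (SE 0.251, edgeR adjusted p = 0.589), -0.17 without zinc replicate 1 and -0.58 without zinc replicate 4.

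The other 4 genes had log2 fold changes of -0.03 to 0.29, with SEs of 0.196 to 0.467. Sgk1, a kinase that promotes epithelial sodium uptake, was at 10.9, 16.1, 7.02 and 17.8 CPM with water and 10.8, 18.6, 10.1 and 15.2 CPM with zinc (log2 fold change 0.07). Klf9, a Krüppel-like transcription factor, was at 72.1, 70.5, 43.4 and 61.4 CPM with water and 54.3, 74.1, 59.4 and 83.8 CPM with zinc (0.13). In both, the lowest mouse was Milli-Q water replicate 3. Cdkn1a was at 47.2, 53.8, 61.2 and 45.3 CPM with water and 45.5, 38.2, 70.6 and 49.4 CPM with zinc (-0.03). Zbtb16, a zinc finger repressor also called PLZF, was at 0.715 to 2.00 CPM with water and 0.726 to 2.34 CPM with zinc (0.29), levels at which each library held few counts. That value was 0.0053 without zinc replicate 1 and 0.62 without Milli-Q water replicate 4. In each of the 4 the ranges of the groups overlapped.

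**Figure D3:**
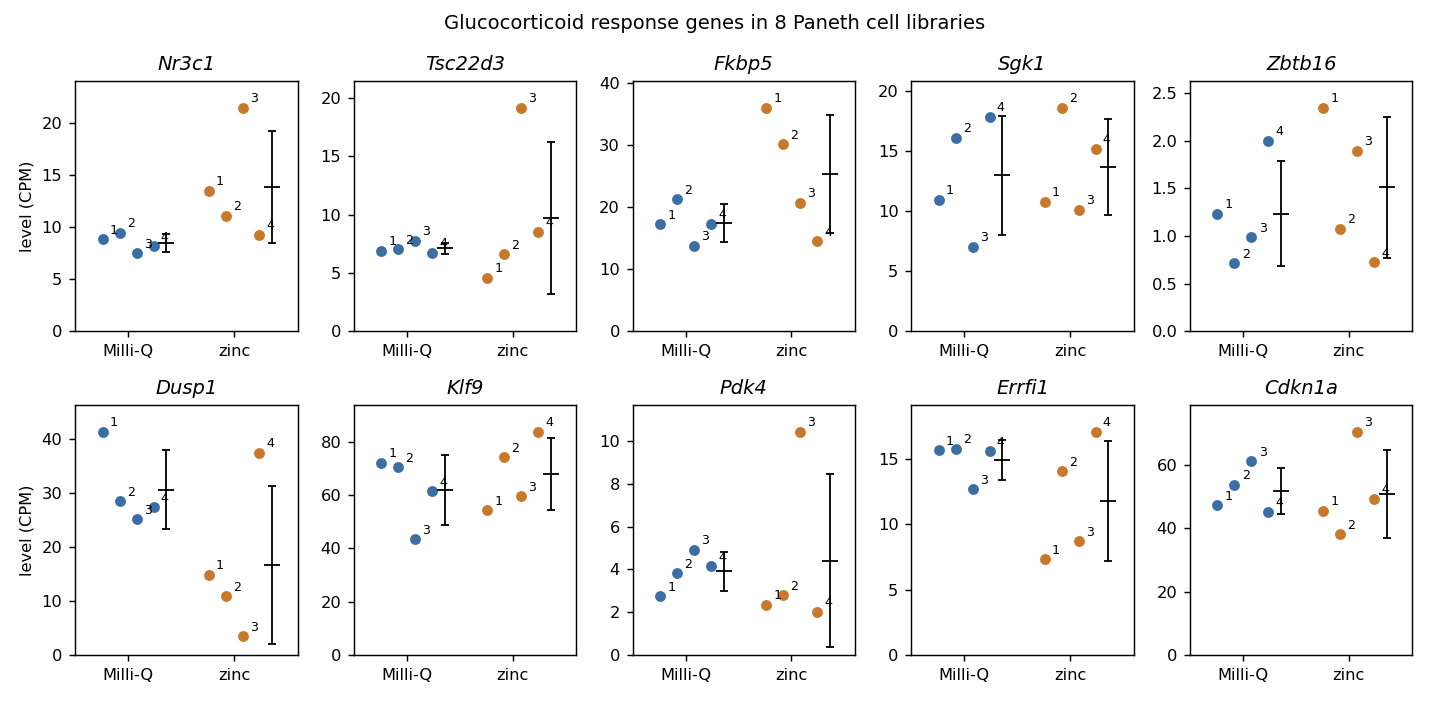
Level (CPM, linear axes from 0) of the 10 glucocorticoid response genes in each library, with Milli-Q water in blue and zinc water in orange. Digits give the replicate number and the black bars the mean ± SD of the 4 libraries of a group. Zinc replicate 3 is the highest point for Nr3c1, Tsc22d3, Pdk4 and Cdkn1a and the lowest for Dusp1.

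The coefficient of variation was larger in the zinc group in 8 of the 10 genes, with Sgk1 and Klf9 as the exceptions, beside 64.7% of all genes. Without zinc replicate 3 it was larger in 6 of 10, beside 45.5% of all genes. For Dusp1 it was 23.9% with water and 87.9% with zinc (68% without zinc replicate 3), and for Tsc22d3 6.39% and 66.8% (30.1%). For Pdk4 it was 23.3% and 91.9%, but 16.4% without that library, below the water value. Zinc replicate 3 was the highest of the 8 libraries in 4 genes (Nr3c1, Tsc22d3, Pdk4 and Cdkn1a) and the lowest in 1 (Dusp1), beside 29.8% and 30.0% of all genes. Milli-Q water replicate 3 was the lowest in 4 (Nr3c1, Fkbp5, Sgk1 and Klf9), beside 16.5% of all genes.

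**Figure D4:**
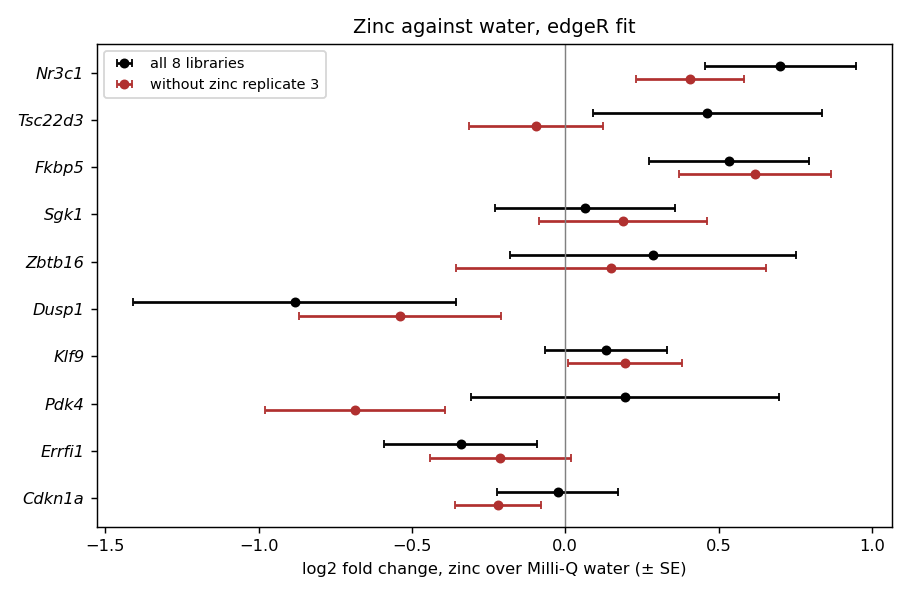
Log2 fold change, zinc over Milli-Q water, of the 10 genes with its standard error, from the edgeR fit on all 8 libraries (black) and without zinc replicate 3 (red). Tsc22d3 and Pdk4 move from 0.46 and 0.19 to -0.10 and -0.69, while Nr3c1 and Fkbp5 stay above 0.

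The behaviour of zinc replicate 3 was also seen in gene lists that share inputs with the 10 genes. Of 12 tested immediate early genes, 8 were lowest in that library and 0 highest, and of 15 TNF and NF-kB targets 14 were lowest and 1 highest. The summed immediate early level was 457.8 CPM there and 885.5 to 1269 in the other 7. Among 10 tested fasting and PPAR target genes, 8 were highest in zinc replicate 3, and their sum was 622.4 CPM against 239.5 to 323.0. The enterocyte list (10 markers, 7 tested, Vil1 the highest) was also highest there, 745.5 CPM against 312.0 to 431.7. Vil1 itself, at 270 CPM in zinc replicate 3, lay within the range of the other 7. Anpep, named after its values were seen, was at 357 CPM against 58.8 to 110. Of 7 goblet cell markers, all tested and Muc2 the highest, 4 were higher and 3 lower with zinc, with a median of 0.84 and 0 past the test. Their sum was 3799 to 6071 CPM with water and 5855 to 10400 with zinc. Zinc replicate 3 had the lowest zinc sum (5855), but in it Fcgbp was at 1270 CPM against 59.8 to 318 in the others, Zg16 at 109 against 6.09 to 48.1 and Clca1 at 82.2 against 2.22 to 54.9. These 3 markers were named after their values were seen. In the same library Muc2 was at 2640 CPM, against 6081 to 9290 in the other zinc libraries. Tff3, Spdef and Agr2, at 879, 129 and 746 CPM there, lay within the range of the other 7 libraries. The part of these inputs and markers in the Pdk4, Tsc22d3, Nr3c1 and Dusp1 values was not tested.

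By edgeR, 0 genes of these lists passed the test with zinc in either direction, as over all genes. The immediate early genes were lower in 11 of 12 with a median log2 fold change of -0.44, which was -0.27 without zinc replicate 3. Jun, an AP-1 factor subunit, was lower in each zinc mouse (52.3 to 61.8 CPM) than in any water mouse (66.2 to 85.3 CPM). Its log2 fold change was -0.45, with an edgeR adjusted p of 0.485. Junb and Ier3 were also lower without overlap, which made 3 of the 12, beside 5.87% of all genes separated in either direction. In levels per length all 3 overlapped between the groups. Fos had a log2 fold change of -0.42, and Nr4a1 was the 1 gene with a positive value (0.53, or 0.21 without zinc replicate 4). The TNF and NF-kB targets were lower in 15 of 15, with a median of -0.49, but in 9 of 15 without zinc replicate 3, with a median of -0.11. Nfkbiz (-1.30) and the chemokine gene Cxcl2 (-2.36) had the smallest p of that list. Of 11 p53 targets, a list that bears on Cdkn1a, 7 were higher and 4 lower (median 0.09), but without zinc replicate 3 only 4 of 11 were higher and the median was -0.17. Trp53inp1 was at 1.01 (0.49 without zinc replicate 3), Eda2r at 0.77 (0.0965 without it), Mdm2 at -0.43 (-0.27 without it) and Aen at -0.40. The fasting and PPAR targets were higher in 8 of 10 (median 0.57, or 0.0995 without zinc replicate 3). The list held Ppargc1a at 1.13, Slc25a20 at -0.34 and Plin2 at -0.02.

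A wider list of 25 known glucocorticoid targets, 22 of them tested, gave 10 higher and 12 lower with a median log2 fold change of -0.05, and 0 past the edgeR test. At an unadjusted p under 0.05 stood 5 of 22, beside 10.2% of all genes. Hif3a, a hypoxia-pathway regulator, had a log2 fold change of 0.83 and Sesn1, a stress-induced inhibitor of mTORC1, of 1.19 (0.69 without zinc replicate 3). Those with the smallest p among the lower genes were Cited2, a transcriptional coregulator, at -0.38 and Rhob, a small GTPase, at -0.51. Cited2 was at 17.0 to 18.2 CPM with water and at 12.1 to 14.3 with zinc, without overlap. Rhob was at 13.40 to 20.3 and at 9.54 to 13.39 CPM, so its groups all but touched. In levels per length both genes overlapped between the groups. Hif3a, Sesn1, Cited2 and Rhob each had an edgeR adjusted p of 0.485. Groups without overlap in CPM were found for 4 of the 22, each lower with zinc, beside 5.87% of all genes in either direction. The 4 were Cited2, Rhob, Ddit4 and Cebpd, the last 2 named after their values were seen. Ddit4 was at 220 to 266 CPM with water and 56.4 to 211 with zinc (log2 fold change -0.87). Cebpd was at 52.3 to 76.1 and 2.88 to 49.3 CPM (-1.0049). In levels per length these 2 genes overlapped as well. The fold changes thus stood on both sides of 0, but the separations in CPM all lay below it.

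Genes that make the hormone were mostly near or below detection, while some genes of its metabolism were not, such as Hsd11b2 and Srd5a1 (1109 and 1060 counts in all). Of 11 genes of steroid synthesis and metabolism, 5 were tested and 0 passed. Cyp11a1, Cyp11b1, Hsd3b1 and Hsd11b1, the last of which encodes the enzyme that regenerates active glucocorticoid, had 0 counts in every library, which allows up to 0.369 CPM. Star had 15 counts over the 8 libraries. Nr0b2 and Nr5a2, which the list holds beside the enzyme genes, had 4 and 143 counts. Nr5a2 was at 0.726 to 2.53 CPM and so was low but detected. Hsd11b2, the enzyme that inactivates glucocorticoid, was present at 13.5, 4.70, 5.05 and 8.56 CPM with water and at 17.7, 16.3, 7.09 and 13.5 CPM with zinc. The ranges overlapped (log2 fold change 0.76, SE 0.369, edgeR adjusted p = 0.491). On leaving out single libraries, the value ran from 0.56 without Milli-Q water replicate 2 to 1.15 without Milli-Q water replicate 1. Without Milli-Q water replicates 3 and 4 it was 0.58. Abcb1a, a steroid-exporting pump, had 0.31 and H6pd, which supplies the cofactor of Hsd11b1, -0.70. Without zinc replicate 3 H6pd was at -0.36 and without zinc replicate 4 at -1.17, and Abcb1a was at 0.12 without Milli-Q water replicates 3 and 4.

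Tracking with the metallothioneins was examined mouse by mouse. Mt1 was at 41.0, 44.3, 68.2 and 36.0 CPM with water and at 254, 107, 29.5 and 45.0 CPM with zinc, and Mt2 at 6.50, 7.09, 22.9 and 4.00 CPM and at 172, 49.8, 8.35 and 4.03 CPM. Zinc replicates 1 and 2 were thus far above the rest, and zinc replicates 3 and 4 lay within or below the water range. The log2 fold changes were 1.20 (SE 0.563) for Mt1 and 2.57 (SE 1.02, edgeR adjusted p = 0.485) for Mt2. Both rested largely on zinc replicate 1, without which they were 0.36 and 1.08. Slc30a1, a zinc exporter gene induced by zinc, had 2.47 on only 155 counts in all (SE 0.79, edgeR adjusted p = 0.485). With water it was at 0.410, 0.893, 0.492 and 0 CPM, near the limit that a count of 0 allows. Zinc replicates 1 to 3 were at 4.78, 3.23 and 1.96 CPM, and zinc replicate 4, at 0.484 CPM, lay within the water range. Over the 8 libraries Mt1 and Mt2 had a Pearson's r of 0.945 on log2 CPM (exact permutation p = 0.002, Spearman's rho 0.69, exact p = 0.069), and 0.63 without zinc replicates 1 and 2.

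In all, 20 relations were computed, the 10 genes each with Mt1 and Mt2, as Pearson's r and Spearman's rho of log2 CPM over the 8 libraries. P-values came from two-sided exact permutation over 40320 pairings and were adjusted over all 10706 other genes tested. Of all genes, 0 passed with Mt1 (smallest adjusted p 0.999) and 0 with Mt2 (0.266), so 0 of the 10 did. Over 40320 pairings a single gene can reach no adjusted p below 0.266, so 8 libraries were too few for a gene to pass alone. At an unadjusted exact p under 0.05, 1 of the 10 had a positive r with Mt1, beside 1.47% of all genes, and 0 had a negative one, beside 1.89%. With Mt2 it was likewise 1 positive, beside 2.13%, and 0 negative, beside 1.99%. The r was positive in 3 genes (Nr3c1, Fkbp5 and Zbtb16) and negative in 7, with either metallothionein.

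Fkbp5 had the largest r of the 10 genes with either metallothionein. Its r with Mt1 was 0.725 (exact permutation p = 0.039, adjusted 0.999) with a rho of 0.31 (exact p = 0.462, adjusted 1.0), and its r with Mt2 was 0.772 (exact permutation p = 0.026, adjusted 1.0) with a rho of 0.548 (exact p = 0.171, adjusted 0.748). The 2 libraries farthest from the median of Mt1 and of Mt2 were zinc replicates 1 and 2, which also had the highest Fkbp5. Without them r was -0.706 with Mt1 and -0.249 with Mt2 over the other 6, so the relation rested on those mice. As deviations from the group means, r was 0.663 with Mt1 (exact permutation within groups, p = 0.25) and 0.713 with Mt2 (exact p = 0.184). Without Milli-Q water replicates 3 and 4, the values were 0.847 and 0.959.

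For Tsc22d3 the r with Mt1 was -0.673 (exact permutation p = 0.104, adjusted 0.999; rho -0.548, exact p = 0.171), and zinc replicate 1, the mouse with the most Mt1, had the least Tsc22d3. It was -0.537 without zinc replicates 1 and 2 and -0.784 without zinc replicate 3. Errfi1 had an r of -0.683 with Mt2 (exact permutation p = 0.054, adjusted 1.0), a rho of -0.738 (exact p = 0.046, adjusted 0.672), -0.469 without zinc replicates 1 and 2 and -0.891 without zinc replicate 3. For Nr3c1 the value turned on which mouse was left out. Its r with Mt1 was 0.063 (exact permutation p = 0.878, rho 0.071, exact p = 0.882) over 8 libraries. It was 0.821 without zinc replicate 3, where Nr3c1 was at its highest and Mt1 at its lowest, and -0.331 without zinc replicate 1. Without zinc replicates 1 and 2 it was -0.714. The other relations, of these and the remaining genes, had an r between -0.523 and 0.357 and an unadjusted exact p of r of at least 0.16. Among them, Dusp1 with Mt2 had an r of -0.324 (exact permutation p = 0.431, adjusted 1.0) and a rho of -0.667 (exact p = 0.083, adjusted 0.69), and its r was -0.831 without zinc replicate 3 and -0.211 without zinc replicates 1 and 2. Sgk1, which carries the full element, had an r of -0.103 with Mt1 (exact permutation p = 0.799, rho 0.024, exact p = 0.977).

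**Figure D5:**
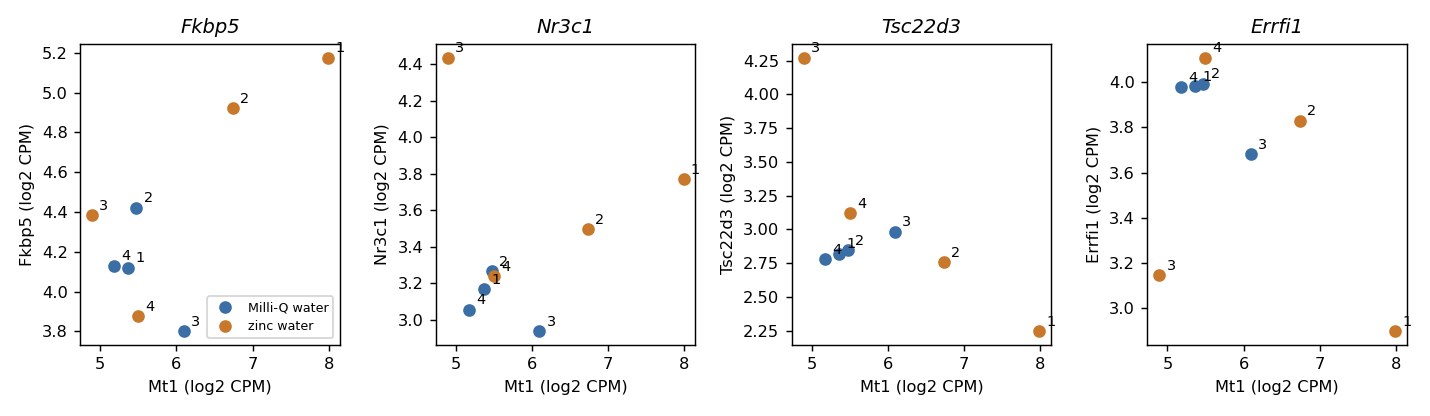
Level of Fkbp5, Nr3c1, Tsc22d3 and Errfi1 against Mt1 (both log2 CPM), 1 point per library with its replicate number, Milli-Q water in blue and zinc water in orange. Zinc replicates 1 and 2 lie to the right in each panel, and zinc replicate 3 lies at the left with the highest Nr3c1 and Tsc22d3.

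The genes whose pattern was most like those of Fkbp5 and Tsc22d3 were sought over the 7 libraries without zinc replicate 3, as a description. For Fkbp5 they were Incenp (Pearson's r 0.997), Trim37 (0.985), Topbp1 (0.985), Fam234b (0.977) and Uhrf1 (0.973). With zinc replicate 3 the values were 0.926 for Incenp, 0.879 for Topbp1 and 0.934 for Uhrf1, but 0.497 for Trim37 and 0.436 for Fam234b. The genes named for Fkbp5, and below for Tsc22d3, were the highest of all genes tested. A high r over the 7 libraries was thus fixed by the choice. The crypt stem and proliferation list (7 markers, 6 tested and 6 of 6 higher with zinc, 0 past the test, Olfm4 the highest) summed to 304.1, 330.5, 406.1 and 220.8 CPM with water and to 805.3, 542.7, 720.0 and 225.0 CPM with zinc. Its marker Ascl2 was at 0 in Milli-Q water replicates 1 and 3 and in zinc replicate 4. Zinc replicates 1 and 2 were thus high for this list, for the metallothioneins and for Fkbp5 together, and zinc replicate 4 was next to lowest for the list, for Mt2 and for Fkbp5. Zinc replicate 3 was high for the list with Fkbp5 inside the water range. Milli-Q water replicate 3 had the highest list sum of the water group (406.1 CPM) but the lowest Fkbp5 of all 8 libraries. Olfm4 alone was at 639 CPM in zinc replicate 1 and at 305 CPM in Milli-Q water replicate 3, most of that sum. Lgr5 was lowest of all 8 libraries in Milli-Q water replicate 3 (7.02 CPM). Mki67 (7.38 CPM), Top2a and Axin2 (4.68 CPM) were there above Milli-Q water replicate 4 alone in the group, but Smoc2 was next to highest. Milli-Q water replicate 2 led the group for Fkbp5, Lgr5 (13.04 CPM), Mki67 (12.7 CPM) and Top2a. Milli-Q water replicate 4 had the lowest Mki67 (5.44 CPM), with Fkbp5 above replicates 1 and 3. The part of those markers in the Fkbp5 values was not tested.

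For Tsc22d3 the most alike genes over the 7 libraries were Naip2 (0.996), Fen1 (0.990), Ift81 (0.975), Nus1 (0.971) and Dtd2 (0.969). Naip2, a sensor of bacterial proteins, ran only from 48.2 to 64.3 CPM. With zinc replicate 3 the values were 0.152, -0.718, -0.101, -0.703 and 0.850 in the same order, so of these 5 genes Dtd2, of the D-tyrosyl-tRNA deacylase family, was the one with a high r over all 8 libraries.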

How the data were processed

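Bulk RNA-seq of sorted PCs gave 8 libraries, which were grouped by their labels. The values are raw counts of reads for each Ensembl gene, which the authors deposited as a single table. The library kit selects polyadenylated RNA and keeps the strand, per the labels, and the submitters' processing notes name FastQC 0.12.0, STAR 2.7.10a, DESeq2 and the mm39 build. The counter, its strand setting, the annotation release and the treatment of multiply matching reads are not given in the sources used here. Symbols, coordinates and transcript lengths came from GENCODE M39 (GRCm39). Of 55414 identifiers, 54749 matched and 665, with 0.00443% of the counts, did not.

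Totals were 10623658 to 15101627 counts. No pair of libraries agreed within sampling noise (chi-square per degree of freedom of at least 6.05 over 28 pairs). Zinc and water were compared with edgeR 4.0.16 in R 4.3.3 (quasi-likelihood F-test, TMM factors, default expression filter), and the genes kept held 99.89% of the counts. Benjamini-Hochberg adjustment was over 10707 genes with a threshold of 0.05. The biological coefficient of variation was 0.269. CPM are on TMM-scaled sizes, and correlations used log2 CPM with a prior count of 2. Exact permutation used SciPy 1.17.1. The steps were tested on simulated data.

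The 10 genes and all gene lists were chosen with earlier results of these data known. Named from each list were the genes past the threshold or, as none passed, at most the 2 of smallest p in each direction. Also named were the 5 genes most alike Tsc22d3 and Fkbp5, and of each marker list its highest gene and those at 0. Any other gene was picked once its values had been seen. The alternatives tried were size factors of DESeq2, upper-quartile factors, alpha-defensin genes removed, no filter, a stricter filter (1 CPM in 4 libraries and 100 counts), DESeq2 1.42.0, limma-voom (limma 3.58.1) with weights per sample, a block for the replicate number, Milli-Q water replicates 3 and 4 left out, a correction for exon length, each library left out in turn, a prior count of 0.5, Spearman's rho and deviations from group means (576 pairings within groups). Nr3c1 sequence and 1 gene that the naming rule picked are not reported here.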

Additional observations from a re-analysis of the deposited data

Results flagged for a closer look

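Of 20 groups of 4 libraries searched (10 genes in each group), 2 held a library farther from the others than Dixon's 95% limit for the gap as a part of the group's range. Chance flags about 1 in 20 groups, so about 1 was to be found by chance. For Pdk4, zinc replicate 3 was at 10.46 CPM while the other zinc libraries were at 2.02 to 2.80 CPM, a gap of 0.907 of the range. For Errfi1, Milli-Q water replicate 3 was at 12.68 CPM while the other water libraries were at 15.6 to 15.8 CPM, a gap of 0.938 of the range.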

How the results depend on the processing

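Of 180 alternative values for the log2 fold changes of the 10 genes, 165 kept the direction, 15 reversed it in 5 genes, and 0 passed the threshold (the lowest adjusted p, 0.146, was by edgeR for Dusp1 without zinc replicate 4). The number of genes called was 0 under every alternative but DESeq2, which called 4 (Lrp1, Slc14a1, Cd74 and Ms4a12, named after their values were seen), none of them a glucocorticoid response gene, and the cause was not tested. It was 0 when any 1 library was left out. The counts of genes correlated with Mt1 or Mt2 were also 0, but with 7 libraries the exact test lets no single gene pass (smallest adjusted p 1), so they say nothing on stability. The numbers of the replicates did not pair the samples (correlations of deviations -0.027, 0.008, 0.025 and 0.027), and with the replicate block 0 genes were called, 802 had an unadjusted p under 0.05, and Pdk4 was at -0.13, Mt1 at 0.77 and Mt2 at 1.61. Limma-voom with sample weights gave -0.10 for Tsc22d3, -0.37 for Pdk4 and -0.025 for Nr4a1. Without Milli-Q water replicates 3 and 4 Klf9 was at -0.078. Upper-quartile factors gave 0.037 for Cdkn1a and 0.054 for Plin2, and the length correction 0.036 and 0.033. On leaving out single libraries the values ran from -0.10 to 0.69 for Tsc22d3, -0.13 to 0.26 for Sgk1, -0.0037 to 0.23 for Klf9, -0.69 to 0.43 for Pdk4, -0.22 to 0.087 for Cdkn1a and -0.33 to 0.15 for Plin2.

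Among correlations with Mt1, deviations from group means gave -0.316 for Nr3c1 and 0.235 for Dusp1, and Spearman's rho was 0.024 for Sgk1 and -0.071 for Zbtb16. With Mt2, deviations gave -0.045 for Nr3c1, and rho was 0.024 for Pdk4. Leaving out single libraries gave r with Mt1 of -0.331 to 0.821 for Nr3c1, -0.302 to 0.108 for Sgk1, -0.433 to 0.477 for Zbtb16, -0.79 to 0.074 for Dusp1 and -0.919 to 0.216 for Errfi1, and with Mt2 of -0.134 to 0.602 for Zbtb16 and -0.463 to 0.055 for Pdk4. The cause of these reversals was not tested. Zbtb16, with 139 counts in all, is limited by depth.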
